A study of Mus musculus with 2 samples.

Results

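The 38 HOX genes examined here belong to the 4 HOX clusters of the mouse, Hoxa on chromosome 6, Hoxb on chromosome 11, Hoxc on chromosome 15 and Hoxd on chromosome 2. They were taken by name from a fixed list and not by a limit on a measured value. The list was, however, chosen with earlier results of these data known. All 38 were found among 21938 protein-coding genes on the assembled chromosomes. The measurement was ChIP-seq of the transcription factor EGR1: chromatin is cross-linked and sheared, fragments carrying EGR1 are captured with an antibody, and their DNA is sequenced. The chromatin came from frontal cortices of male 129SvEv/C57BL/6N F1 hybrid mice at 6 weeks, with no genotype change and no treatment, and several mice were pooled for each of the 2 replicates. The second sample, input DNA of the same tissue, was not analysed here because only the peak list of the ChIP was in the files used. That list merges the 2 replicates, so the spread between them and a test over samples could not be had, and the labelled tissue could not be checked against marker genes. It held 12014 peaks, each with its position on mm10 and its irreproducible discovery rate (IDR), which is read like a q-value and was at most 2%. Of these, 11938 lay on assembled chromosomes. Read depth per peak is unknown, and a gene without a listed peak is a gene for which no peak passed this limit, which is not the same as a gene that EGR1 never occupies.

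HOX proteins are homeodomain transcription factors that tell cells where they lie along the head-to-tail axis of the embryo. Within a cluster the genes are ordered as their expression domains are, from the anterior paralogues at the 3′ end to the posterior paralogues at the 5′ end. Many of their promoters are rich in CpG dinucleotides, and in tissues of the forebrain the clusters are a textbook example of chromatin held silent by Polycomb proteins. EGR1 is a zinc-finger factor induced by neuronal activity that recognises GC-rich DNA. Expression was not measured in the data used here, so the silence of the clusters in cortex could not be checked. HOX genes were therefore set beside other protein-coding genes with CpG-rich promoters.

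A gene was counted if the centre of a peak lay in its body or within 10 kb of a transcription start site (TSS), or, more narrowly, within 1 kb of a TSS. Only 2 of the 38 HOX genes, Hoxb3 and Hoxb2, met the wider rule (5.26%, 95% Wilson interval 1.46% to 17.3%). Only Hoxb3 met the narrower rule (2.63%, 0.466% to 13.5%), and with the 5′-most TSS of each gene alone the count was 0. Both genes owed this to the same peak. Among the other protein-coding genes, 38.8% met the wider rule and 27.4% the narrower rule. Among the 10846 other genes with a CpG-rich promoter, these shares were 58.5% and 46.8%. Start sites within 1 kb of each other were also merged into promoters. Counted so, 1 of 52 promoters of all 38 HOX genes had a peak within 1 kb. The share was 29.6% for the 16126 promoters of other CpG-rich genes. The HOX set includes genes without a CpG-rich promoter, Hoxb3 among them, so the 2 sets are not alike in CpG content. The Hoxa, Hoxc and Hoxd clusters held no peak at all, neither at a HOX gene nor between HOX genes. Members of a cluster are neighbours and share start sites and regulatory DNA, so the intervals, which treat genes as independent and cover counting error only, are narrower than they should be.

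The HOX peak is shown in full because it was the sole peak in 565 kb of cluster sequence. It spans chr11:96343612-96343861 (mm10, 250 bp), and its centre lies 33 bp upstream of an internal TSS of Hoxb3. In the plus strand below, which is also the strand of Hoxb3, the capitals mark the position nearest to the EGR1 response element.
Hoxb3 peak: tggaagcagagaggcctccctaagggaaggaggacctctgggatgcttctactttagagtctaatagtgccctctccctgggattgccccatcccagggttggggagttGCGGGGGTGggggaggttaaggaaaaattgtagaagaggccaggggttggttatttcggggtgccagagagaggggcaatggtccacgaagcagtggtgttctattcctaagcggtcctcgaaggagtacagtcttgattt
The exact element was searched as GCGTGGGCG and GCGGGGGCG on both strands. The capitals differ from GCGGGGGCG by C8T, counted from 1 at the 5′ end of the element, and lie 11 bp from the peak centre. The exact element occurred neither in the peak nor within 250 bp of its centre. The exact element occurred in 16.6% of all peaks (1987 of 11938) and in 24.2% of peaks within 1 kb of other CpG-rich genes (1318 of 5436), while a match with at most 1 mismatch occurred in 69.8% and 85.5% of them. The peak overlapped the first bases of an alternative Hoxb3 transcript, its centre lay in no annotated exon, and it was also inside the antisense gene Hoxb3os, whose own TSS was 4.19 kb away.

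The Hoxb3 peak was compared with other peaks by sequence and rank. Its GC content was 54.4% and its CpG ratio, the observed number of CpGs over the number expected from base composition, was 0.30. The median peak near other CpG-rich genes had 67.2% GC and a CpG ratio of 0.82, and 2.12% of those 5436 peaks had a lower ratio than the Hoxb3 peak. Over all 11938 peaks the medians were 60.4% GC and a ratio of 0.60, and 23.7% had a lower ratio, so among all peaks its CpG ratio was not extreme. Its IDR was 0.00707. The median IDR was 5.27e-05 for peaks near other CpG-rich genes and 0.000325 for all peaks, and 83.4% of the listed peaks had an IDR at or below that of the Hoxb3 peak. At an IDR of at most 0.001 the HOX clusters held 0 peaks.

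**Figure D1:**
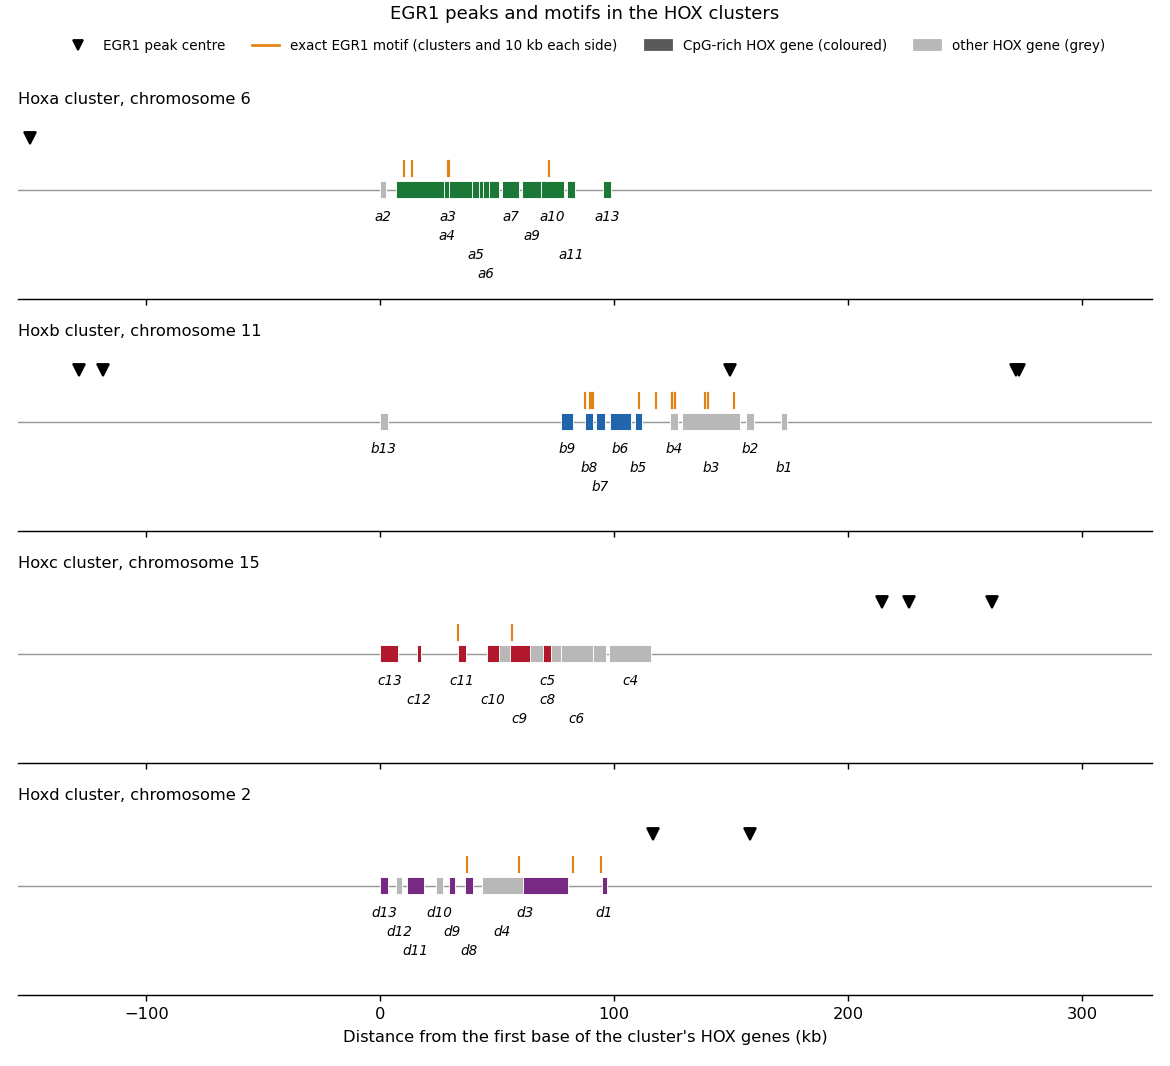
Map of the 4 HOX clusters, with distance in kb from the first base of the cluster's HOX genes on the horizontal axis. Boxes are HOX genes (coloured where the promoter is CpG-rich, grey otherwise), orange ticks are exact EGR1 motifs in the cluster and 10 kb to each side, and triangles are centres of EGR1 peaks. Only 1 triangle, at Hoxb3, stands over a cluster.

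The clusters were also described as stretches of DNA, from the first to the last base of their HOX genes with 10 kb added to each side. Together these 4 stretches measured 0.565 Mb and held 1 peak, or 1.77 peaks per Mb, against 4.38 peaks per Mb over the assembled chromosomes. At the density of the whole genome they would hold 2.47 peaks. Set against start sites the contrast was wider: the stretches contain 162 annotated TSSs of genes of any type, which gives 0.617 peaks per 100 TSSs, against 9.0 per 100 TSSs in the genome. Both figures divide all peaks, also those far from a TSS, by all TSSs. They are therefore not rates of peaks at start sites and depend on how densely TSSs lie. The flanks differed among clusters. Within 500 kb to the left and right there were 1 and 0 peaks for Hoxa, 6 and 8 for Hoxb, 8 and 12 for Hoxc, and 0 and 3 for Hoxd. These counts stand beside the genome-wide 4.38 peaks per Mb, as both flanks of a cluster together measure 1 Mb.

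In the Hoxa cluster all 10 genes were more than 150 kb from a peak. The nearest peak (chr6:52012569-52012824, IDR 2.90e-06) lay 150 kb beyond the 3′ end of the cluster, and on the other side the next peak lay 701 kb away. Distances, measured from the nearest TSS to the peak centre, therefore grew along the cluster. They began at 152 kb for Hoxa2, which patterns the hindbrain and the second branchial arch. Hoxa3, needed for the thymus and parathyroid, was 171 kb away. The central genes Hoxa4, Hoxa5, which is required for lung development, Hoxa6 and Hoxa7 lay at 179, 192, 196 and 205 kb. Hoxa9, known for its role in leukaemia, lay at 213 kb. Hoxa10 and Hoxa11, both needed for a fertile uterus, lay at 222 and 233 kb. Hoxa13, which shapes digits and the urogenital tract, lay at 248 kb. Promoters of this cluster were CpG-rich in 9 of 10 genes, Hoxa2 being the exception. The CpG ratio of the 1 kb around the TSS ran from 0.63 at Hoxa3 to 1.00 at Hoxa5, and the GC content from 53.4% at Hoxa2 to 76.2% at Hoxa13.

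In the Hoxb cluster the peak lay among the anterior genes, whose promoters were not CpG-rich. Hoxb3, with a CpG ratio of at most 0.34 at any of its 3 start sites, was 0.033 kb from it. Hoxb2, a hindbrain gene, was 7.90 kb away with a CpG ratio of 0.40. Hoxb1, which specifies the fourth rhombomere, was 22.0 kb away with a ratio of 0.43, and Hoxb4, known for expanding blood stem cells, was 25.5 kb away with a ratio of 0.49. These 4 genes were the nearest to the peak, and none of their promoters met the definition of CpG-rich used here. The 5 genes with CpG-rich promoters stood farther off. Hoxb5 lay at 40.2 kb, Hoxb6 at 44.6 kb and Hoxb7 at 57.1 kb. Hoxb8, whose loss makes mice groom excessively, lay at 61.0 kb, and Hoxb9 at 72.2 kb. Their CpG ratios ran from 0.80 at Hoxb6 and Hoxb8 to 0.88 at Hoxb5. Hoxb13, the prostate and tail gene that stands apart at the 5′ end, was 118 kb from a peak outside the cluster (IDR 0.000106) and had a ratio of 0.45.

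In the Hoxc cluster all 9 genes were more than 100 kb from a peak. The nearest peaks were on either side, 174 kb to the left of Hoxc13 (IDR 4.45e-08) and 98.8 kb to the right of Hoxc4 (IDR 0.000159). Hoxc4, Hoxc5 and Hoxc6, the last of which marks the forelimb level of the spinal cord, lay at 101, 122 and 126 kb and had no CpG-rich promoter. The 6 other genes had one. Hoxc8 lay at 145 kb, and Hoxc9, which sets thoracic motor neuron identity, at 159 kb. Hoxc10, Hoxc11 and Hoxc12 lay at 169, 181 and 190 kb. Hoxc13, needed for hair formation, lay at 174 kb. The highest CpG ratio in the cluster was 0.89, at Hoxc12.

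The Hoxd cluster had the nearest outside peak of all. That peak (chr2:74784642-74784891, IDR 0.0174) lay 19.6 kb beyond the last base of Hoxd1 and close to the 2% limit. Hoxd1, which acts in pain-sensing neurons, was 21.8 kb from it, Hoxd3 39.1 kb and Hoxd4 57.7 kb. Hoxd8 and Hoxd9 followed at 79.6 and 87.0 kb. Hoxd10, which acts in lumbar motor neurons, lay at 92.8 kb, and Hoxd11, a forelimb bone gene, at 102 kb. Hoxd12 and Hoxd13, which act in digit formation, lay at 110 and 116 kb. On the 5′ side the next peak was 749 kb away. Promoters were CpG-rich in 6 of the 9 genes, and Hoxd8 had the highest CpG ratio of all 38 HOX genes, 1.00, with 76.7% GC.

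**Figure D2:**
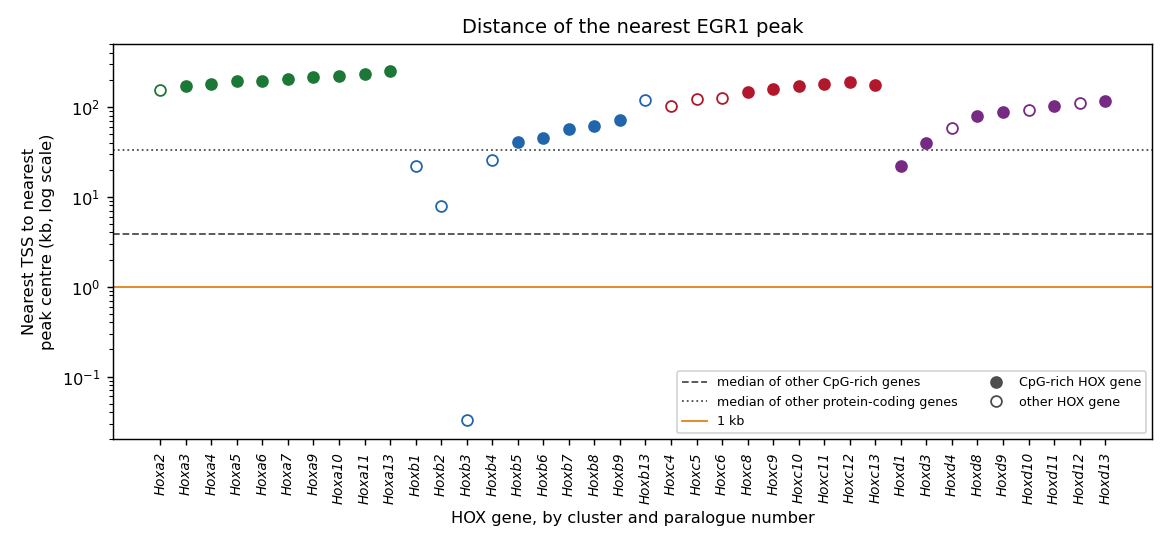
Distance from the nearest TSS of each HOX gene to the nearest EGR1 peak centre, in kb on a log scale, with genes ordered by cluster and paralogue number. Filled points are CpG-rich promoters, open points other promoters, and the lines mark 1 kb and the medians of other genes (3.89 kb for CpG-rich and 33.2 kb for all protein-coding genes). Every filled point lies above both medians, except that Hoxd1, at 21.8 kb, lies between them.

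Over all 38 HOX genes the median distance to the nearest peak was 117 kb, with a range from 0.033 to 248 kb. The median was 3.89 kb for other CpG-rich genes and 33.2 kb for all other protein-coding genes on chromosomes that held a peak. Distances above 100 kb were found for 23 of 38 HOX genes (60.5%) and for 30.4% of other protein-coding genes. Among genes with a CpG-rich promoter they were found for 17 of 26 HOX genes (65.4%) and 14.6% of others. Among genes without one they were found for 6 of 12 HOX genes and 46.1% of others. Ordered by paralogue, 2 of 7 anterior genes (numbers 1 to 3) met the wider rule, and 0 of 15 central genes (4 to 8) and 0 of 16 posterior genes (9 to 13) did. The single peak decides this order. Median distances were 22.0, 101 and 164 kb in the 3 groups, and since 1 or 2 peaks set the distances of a whole cluster, these medians do not rest on independent genes.

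CpG content was then held alike. A promoter was called CpG-rich if any 500-bp window from 900 bp upstream to 400 bp downstream of a TSS had a CpG ratio of at least 0.75 and at least 55% GC. By this definition 26 of the 38 HOX genes (68.4%) were CpG-rich, against 49.5% of other protein-coding genes. None of these 26 had a peak within 1 kb of a TSS (0%, upper 95% Wilson bound 12.9%) and none met the wider rule, whereas 46.8% of the other CpG-rich genes had a peak within 1 kb (45.9% to 47.7%). Hoxb2 and Hoxb3, the genes with a peak, were among the 12 HOX genes outside the definition. Of other genes outside it, 8.27% had a peak within 1 kb and 19.4% met the wider rule, beside 1 and 2 of the 12 HOX genes.

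**Figure D3:**
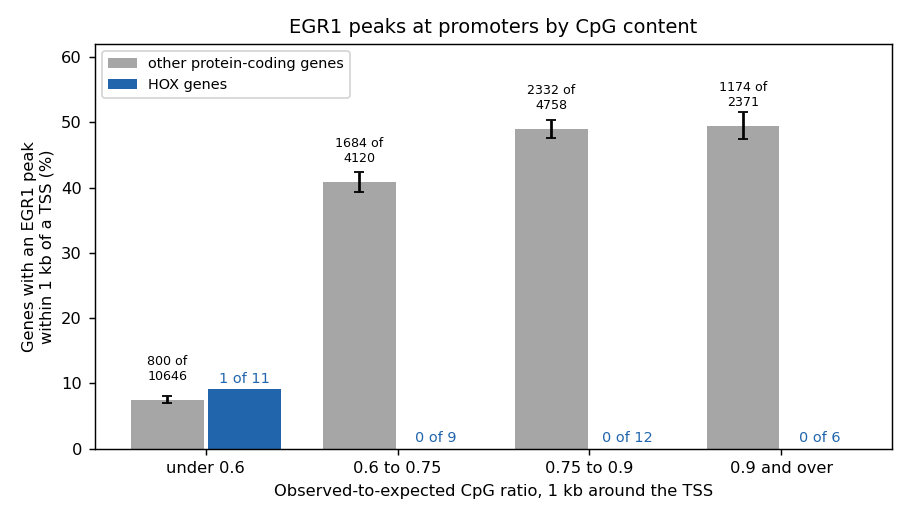
Percent of genes with an EGR1 peak within 1 kb of a TSS (vertical axis) by CpG ratio of the 1 kb around the TSS (horizontal axis). Grey bars are other protein-coding genes with 95% Wilson intervals, blue bars are HOX genes without intervals, and the counts stand above the bars. The share of other genes rises from 7.51% to 49.5%, and the HOX count is 1 of 11 in the lowest bin and 0 in the other 3.

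Bins of the CpG ratio compared HOX promoters with promoters of like CpG ratio. GC content, the EGR1 element and the number of start sites were not matched in these bins. Under a ratio of 0.6, 1 of 11 HOX genes had a peak within 1 kb, beside 7.51% of 10646 other genes. From 0.6 to 0.75 the counts were 0 of 9 HOX genes and 40.9% of 4120 other genes. From 0.75 to 0.9 they were 0 of 12 and 49.0% of 4758, and at 0.9 and over 0 of 6 and 49.5% of 2371. The 6 HOX genes of the highest bin were Hoxa4, Hoxa5, Hoxa13, Hoxd8, Hoxd11 and Hoxd13. HOX genes are short, with a median length of 3.50 kb against 27.5 kb for other CpG-rich genes, and have fewer start sites, with a median of 1 against 2. Among other CpG-rich genes at most 10 kb long the wider rule was met by 54.6%, beside 58.5% of all other CpG-rich genes. Among those with 1 TSS the narrower rule was met by 42.6%, beside 46.8%. Both shares lay below the Wilson intervals of all other CpG-rich genes. Whether gene length or the number of start sites bears on the HOX counts was not tested.

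The EGR1 element itself was present in the clusters. The 4 stretches held 23 exact copies, 20 of GCGGGGGCG and 3 of GCGTGGGCG, or 4.07 per 100 kb against 0.277 per 100 kb in the genome. The genome figure is not matched for CpG content. Among CpG-rich genes, 6 of 26 HOX genes held a copy within 500 bp of a TSS, beside 2208 of 10846 other genes. These 2 shares were near each other. Hoxb held 12 of them, Hoxa 5, Hoxd 4 and Hoxc 2. By annotation 11 lay in an exon of a HOX gene, 6 in an intron and 6 between HOX genes. None of the 23 lay in a peak (0%, upper 95% Wilson bound 14.3%), and the nearest was 1.88 kb from the centre of the Hoxb3 peak. Of 3007 copies within 1 kb of a TSS of another CpG-rich gene, 48.4% lay in a peak (46.6% to 50.1%), and of all 7536 copies elsewhere in the genome 29% did. Within 1 kb of a HOX TSS the count was 0 of 11. These copies include some at Hoxb4 and Hoxd4, which were not CpG-rich, so they are not matched to the 3007. At the other CpG-rich genes both forms were found in peaks, GCGGGGGCG in 46.4% of 2464 copies and GCGTGGGCG in 57.3% of 543. Copies with another copy within 250 bp, such as the pair in an exon of Hoxb4, lay in a peak in 38.7% of 688 cases there and lone copies in 51.2% of 2319.

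The copies within 500 bp of a TSS are printed with 20 bases on each side, since they are intact elements in CpG-rich HOX promoters where no peak was listed. Each is written 5′ to 3′ on the strand that carries the element, on mm10, with the element in capitals.
Hoxa4, inner site (chr6:52191253-52191301): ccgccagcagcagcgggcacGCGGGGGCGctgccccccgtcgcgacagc
Hoxa4, outer site (chr6:52191905-52191953): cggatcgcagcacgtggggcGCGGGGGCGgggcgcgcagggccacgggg
Hoxa10 (chr6:52234458-52234506): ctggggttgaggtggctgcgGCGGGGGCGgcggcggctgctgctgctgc
Hoxb8 (chr11:96281663-96281711): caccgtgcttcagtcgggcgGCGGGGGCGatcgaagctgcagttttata
Hoxc9 (chr15:102977226-102977274): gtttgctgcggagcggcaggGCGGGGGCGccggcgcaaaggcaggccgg
Hoxc11 (chr15:102954141-102954189): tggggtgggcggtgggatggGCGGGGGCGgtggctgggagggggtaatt
Hoxd8 (chr2:74705277-74705325): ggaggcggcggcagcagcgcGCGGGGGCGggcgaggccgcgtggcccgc
They belong to 6 genes, Hoxa4, Hoxa10, Hoxb8, Hoxc9, Hoxc11 and Hoxd8, and lie 149 bp (Hoxd8) to 476 bp (inner site of Hoxa4) from the nearest TSS. The outer site of Hoxa4 lay 176 bp upstream of its TSS, that of Hoxb8 218 bp upstream and that of Hoxc11 262 bp upstream, and the others lay downstream. The sites were 62 kb (Hoxb8) to 222 kb (Hoxa10) from the nearest peak centre. Their surroundings were not alike: the 1 kb around the site had 77.2% GC and a CpG ratio of 1.08 at Hoxd8, and 46.0% GC and a ratio of 0.66 at Hoxb8. None of these 6 CpG-rich HOX genes had a peak within 1 kb of a TSS, whereas 72.1% of the 2208 other CpG-rich genes with the element within 500 bp of a TSS did (70.1% to 73.9%). Without the element the share among other CpG-rich genes was 40.3%, and the 20 remaining CpG-rich HOX genes also had 0. In the promoter windows of RefSeq (GRCm38.p6, from 250 bases before to 50 after a gene's start), 22 of the 38 HOX genes were matched with 24 windows. Of these, 1 window held the element, that of Hoxb8 (4.17%), beside 3.47% of all 32851 windows.

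Elements of the same kind in listed peaks are given for comparison, from related genes of the lists described next.
Rnf2 (chr1:151501043-151501091): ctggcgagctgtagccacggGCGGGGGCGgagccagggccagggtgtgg
Barx2 (chr9:31913704-31913752): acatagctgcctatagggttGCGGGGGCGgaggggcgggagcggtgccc
Nkx6-1 (chr5:101664387-101664435): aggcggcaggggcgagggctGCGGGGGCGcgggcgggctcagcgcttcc
These lay in peaks within 1 kb of a TSS of Rnf2 (IDR 1.20e-06), Barx2 (IDR 1.36e-05) and Nkx6-1 (IDR 0.00192). All 3 carry GCGGGGGCG, the form that the 7 HOX promoter sites carry too. Another pair of HOX sites is shown because the sequence around the element is shared between paralogues. Both are in exons, and 40 of the 49 bases printed are identical.
Hoxb5 (chr11:96304988-96305036): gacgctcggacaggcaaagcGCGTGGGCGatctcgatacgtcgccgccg
Hoxb4 (chr11:96320137-96320185): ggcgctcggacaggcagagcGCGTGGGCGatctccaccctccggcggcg
Neither lay in a peak, with the nearest peak centre at 38.7 kb for the Hoxb5 site and at 23.6 kb for the Hoxb4 site.

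Genes that work with or upon the HOX genes were counted by the same rules. TALE homeodomain proteins bind DNA together with HOX proteins. Of these 9 genes, 4 (44.4%) had a peak within 1 kb of a TSS and 8 (88.9%, 56.5% to 98.0%) met the wider rule. The shares were 27.4% and 38.8% of all other protein-coding genes and 46.8% and 58.5% of CpG-rich ones. The wider rule counts the gene body, and TALE genes are long, with a median of 139 kb against 27.5 kb for other CpG-rich genes. Pbx3 and Pknox2 met it only through their bodies, with peaks 33.6 and 28.4 kb from a TSS. Genes of like length were not compared. Pbx2 had a peak 31 bp from a TSS (IDR 3.12e-07), Pknox1 at 3 bp (IDR 0.000833) and Pbx4 at 20 bp (IDR 0.00471). Polycomb and Trithorax regulators repress or maintain HOX expression, and 11 of 19 had a peak within 1 kb. All 19 are CpG-rich, and their share of 57.9% (36.3% to 76.9%) was near the 46.8% of other CpG-rich genes. Among them were Kmt2a, the methyltransferase that maintains HOX expression (350 bp, IDR 6.15e-08), Rbbp5 and Men1, which act with it (6 bp each, IDR 1.81e-07 and 2.36e-07), and Rnf2, a Polycomb ubiquitin ligase (151 bp, IDR 1.20e-06). Ezh2, the Polycomb methyltransferase, had its nearest peak at 55.8 kb.

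The list nearest to the HOX genes in its share was that of their homeobox relatives. Of 30 other ANTP-class and ParaHox genes, 3 had a peak within 1 kb (10.0%) and 7 met the wider rule (23.3%). Barx2 had a peak at 295 bp and Nkx6-1 at 503 bp. All 3 genes were among the 23 CpG-rich genes of the list, giving 13% (4.54% to 32.1%) against 42.9% of the 7 CpG-rich TALE genes and 57.9% of the 19 Polycomb and Trithorax genes. Its interval overlaps that of the CpG-rich HOX genes, 0 of 26. Evx1 and Evx2, which border the Hoxa and Hoxd clusters, were 301 and 125 kb from a peak. En1, Gbx2 and Nkx2-1, which pattern the midbrain, hindbrain and ventral forebrain, were 482, 343 and 292 kb away.

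**Figure D4:**
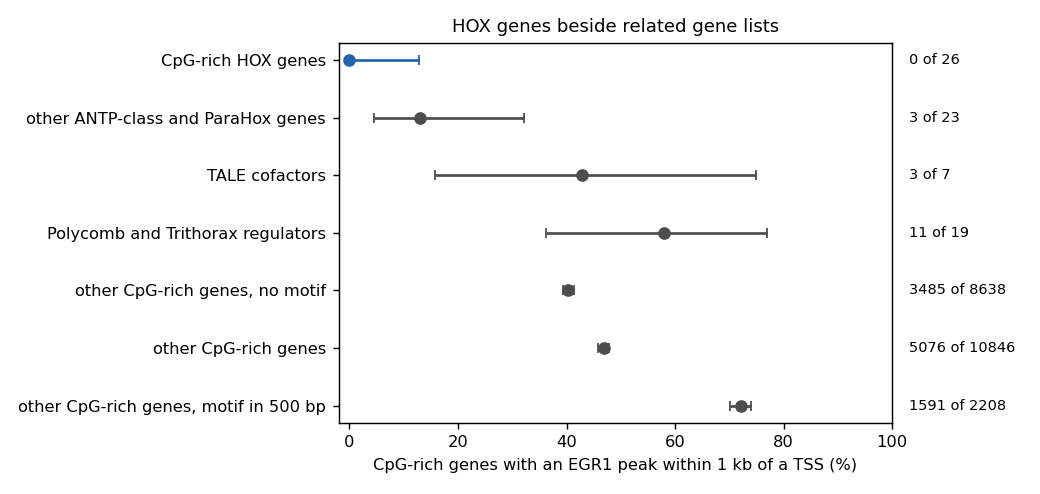
Percent of CpG-rich genes with an EGR1 peak within 1 kb of a TSS, for HOX genes (blue) and for related lists and other genes (grey), with 95% Wilson intervals as bars and counts at the right. HOX genes (0 of 26) and other ANTP-class and ParaHox genes (3 of 23) lie to the left of all other groups.

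Of 38 noncoding genes and pseudogenes that overlap the span of the HOX genes, 0 had a peak within 1 kb of a TSS, and elsewhere in the genome 3.82% of 33427 such genes did, so a count of 0 is near the background for this gene type. The long noncoding RNA Hotair, which lies between Hoxc11 and Hoxc12, was 188 kb from a peak. Haglr, next to Hoxd1, was 21.9 kb away. The miRNA genes Mir10a in Hoxb, Mir10b in Hoxd and Mir196b in Hoxa, whose products target HOX transcripts, were 26.6, 58.7 and 217 kb away. Counting all genes within 100 kb of a cluster other than the members, 3 of 80 had a peak within 1 kb. The share was 13.4% for genes of any type elsewhere, but this is not a like background. Most of the 80 were noncoding genes or pseudogenes, for which the share elsewhere was 3.82%. All 3 genes with a peak lay outside the span of the HOX genes. They were Mtx2, a mitochondrial import gene beside Hoxd (281 bp, IDR 0.000131), and the long noncoding genes Gm49477 (275 bp, IDR 0.000159) and D930007P13Rik (222 bp, IDR 0.000411) beside Hoxc. Skap1 beside Hoxb had its nearest peak 1.25 kb from the TSS (IDR 0.00155), just outside the limit.

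Peak-free intervals, from each peak centre to the next, showed how the HOX clusters stand in the genome. There were 11959 such intervals, counting chromosome ends, with a median length of 63.8 kb and a median of 1 CpG-rich protein-coding gene starting in them. The interval that holds the Hoxa genes was 950 kb long and held 14 CpG-rich genes, among them 9 HOX genes and also Evx1, Hibadh and Tax1bp1. By this number it shared the second place of all intervals. By length alone its rank was 573. The interval of the Hoxd genes (865 kb) held 8 CpG-rich genes and ranked 16 by number, that of the Hoxc genes (389 kb) held 6, and that of the 8 Hoxb genes from Hoxb13 to Hoxb3 (268 kb) held 5. Intervals with 5 or more made up 2.04% of all. The interval with the most CpG-rich genes held 16 in 223 kb of chromosome 13, all but Zfp184 being histone genes, and an interval at the start of chromosome 14 also held 14. These neighbours in rank were picked after their values were seen.

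**Figure D5:**
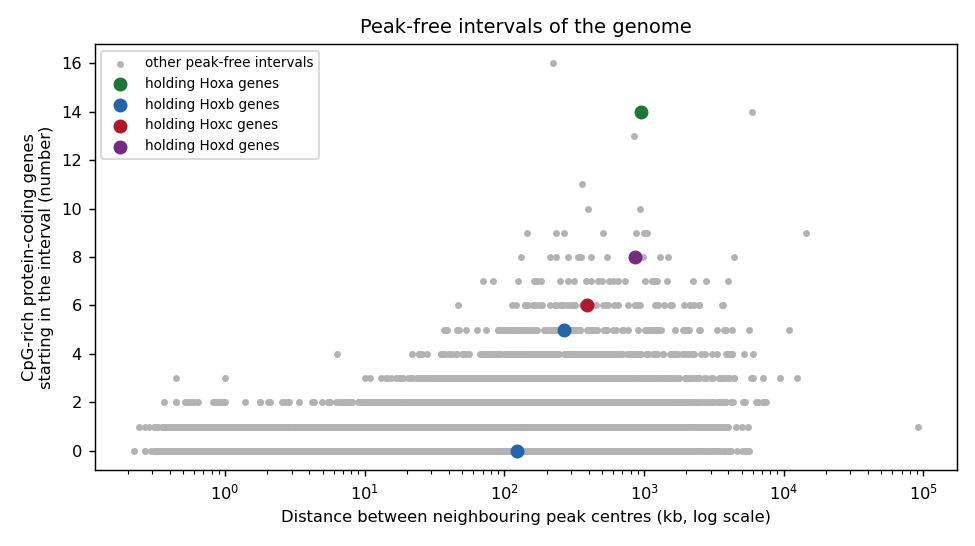
Each point is the interval between neighbouring EGR1 peak centres (or a chromosome end), with its length in kb on a log scale and the number of CpG-rich protein-coding genes that start in it. The Hoxa interval (950 kb, 14 genes) is level with 1 other interval for the second-highest number, the Hoxd interval (865 kb) holds 8, and 1 of the 2 intervals with Hoxb genes holds 0.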

How the data were processed

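The authors trimmed the paired-end reads, mapped them to mm10, called peaks per replicate with SPP and kept peaks of both replicates that passed an IDR of 2%. The deposited values are peak positions and the IDR, a rate on the scale of a q-value. No counts or signal were used, so depth is unknown. The submitters' processing notes name cutadapt 11.2, Bowtie2 2.2.9 and bedtools 2.26.0. The paper names Bowtie for the ChIP-seq reads and Bowtie2 for the bisulfite and RNA reads. The noted versions may therefore not all apply to this list.

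Starts were taken as 0-based, as in BED, and are printed counted from 1. Genes and TSSs of protein-coding transcripts came from GENCODE release M21 and sequence from GRCm38.p6, the assembly of mm10. Peak centres were assigned to genes. "Other" genes exclude those in the clusters or within 10 kb. With 1 merged list, nothing was tested. Shares are given with 95% Wilson intervals. The members and lists were chosen with earlier results of these data known. All members were named, with up to 4 genes per other list, most by lowest IDR, and some genes of these lists are not reported here. Genes of other lists named for their distance (Ezh2, Evx1, Evx2, En1, Gbx2 and Nkx2-1) were chosen after their values were seen. Python 3.11.15 with numpy 2.4.6 and scipy 1.17.1 was tested on simulated data, where 400 of 400 motif states and 400 of 400 windows were recovered.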

Additional observations from a re-analysis of the deposited data

How the results depend on the processing

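The count of HOX genes with a peak rests on 1 peak. With the gene body or 2 kb, the gene body or 5 kb, or the gene body alone, 1 HOX gene met the wider rule, beside 54.5%, 55.8% and 37.2% of other CpG-rich genes. At an IDR of at most 0.01 the share of other CpG-rich genes was 55.1% by the wider rule and 44.1% within 1 kb. At an IDR of at most 0.001 it was 43.9% and 34.7%, and the HOX genes by either rule and the HOX clusters had 0 peaks. With TSSs of all transcripts the wider share was 59.6%, and with a CpG ratio of at least 0.6 over 1 kb the shares were 60.4% and 48.9%. Within 250 bp and 2 kb of a TSS the narrower share was 36.3% and 48.2%, and with the 5′-most TSS alone it was 42.8%, with 0 HOX genes. In the HOX peak, 1 element was found where 1 mismatch was allowed. Of 55 alternative values, 26 stayed within the Wilson interval or count range of the value reported, among them the share of CpG-rich genes with the element, at 72% to 72.7%.

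Alternatives chosen after seeing the data gave 54.6% of other CpG-rich genes and 1 HOX gene by the wider rule for genes at most 10 kb long. Within 1 kb they gave 42.6% and 0 for genes with 1 TSS, and 29.6% for start sites merged within 1 kb. The merged HOX count was 1 of 52 promoters, from HOX genes of any CpG content. Without the Hoxb3 start site nearest to the peak, and for CpG-rich HOX genes alone, the count was 0. No paired analysis was possible because the list merges both replicates, and for the same reason no replicate could be left out. Depth is unknown, so a weak peak below the IDR limit cannot be told from none.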
